A study of Mus musculus with 26 samples.

Results

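Brown adipose tissue stores glycogen and draws on it when thermogenesis is switched on, and 9 genes of glycogen synthesis and breakdown are described here in mouse brown fat before and after cold. The genes were chosen by name and function, with earlier results of these data known. They were the glycogen synthases Gys1 and Gys2, the branching enzyme Gbe1 and the UDP-glucose pyrophosphorylase Ugp2. The others were the glycogen phosphorylases Pygl, Pygb and Pygm, and the protein phosphatase 1 glycogen-targeting subunits Ppp1r3b and Ppp1r3c. All 9 passed the filter on low counts, among 17286 genes tested of 50686 in the count table.

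RNA-seq of brown fat, labelled as supraclavicular, was compared between 26 male C57BL/6J mice aged 12 to 16 weeks, housed singly. All mice had spent 2 weeks at thermoneutrality, given as 30 °C in the labels and as 29 °C in the study's methods. Control littermates stayed there (n = 7) or went to 5 °C for 6 h (n = 5), and mice labelled Afadin KO did the same (n = 7 and n = 7). The mice labelled KO carried floxed alleles of Afdn (Mllt4) and a Cre under the Adiponectin promoter, which acts in white and brown adipocytes alike; the alleles of the control littermates are not given in the sources used here. Libraries held 12705969 to 25732258 counts in genes, and each of the 9 genes had at least 234 counts in every library except Pygm, which went as low as 26 counts.

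Libraries were compared before the genes were. Afdn itself was at 151 to 214 CPM (counts scaled to a common library total) in control mice at thermoneutrality and at 154 to 231 CPM in the mice labelled KO, so that the label was not visible in this gene's total; after cold the ranges were 67.9 to 79.2 CPM and 53.3 to 65.3 CPM (log2 difference -0.33 ± 0.09 SE, adjusted p = 0.116, edgeR quasi-likelihood test). Which part of Afdn is deleted is not given in the sources used here, and a count over the whole gene does not tell a deleted part from the rest. The cause of the overlapping totals at thermoneutrality was not tested. For protein, the study reports that the cold rise of Afadin in brown fat was smaller in its knockout mice. Brown adipocyte markers were abundant throughout, with a median of 1004 CPM for Ucp1, the uncoupling protein of thermogenesis, in control mice at thermoneutrality and 15960 CPM after cold. Skeletal muscle markers (12 genes, none at 0 in a whole group) varied widely between mice within every group, with sums of 8.96 to 6510 CPM and 5.30 to 1820 CPM at thermoneutrality in control mice and mice labelled KO, and 1.5 to 5740 CPM and 2.66 to 9150 CPM after cold. The median sum was 78 CPM in thermoneutral control mice and 952 CPM in thermoneutral mice labelled KO, and 981 and 952 CPM after cold. Values without the 4 libraries richest in these markers are therefore given where a call changed.

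Glycogen is built from glucose 1-phosphate, which UGP2 turns into UDP-glucose. Glycogen synthase adds that glucose to a growing chain and the branching enzyme GBE1 introduces the branch points. Glycogen phosphorylase releases glucose 1-phosphate from chain ends, and its liver, brain and muscle forms are encoded by Pygl, Pygb and Pygm, just as Gys1 and Gys2 encode the muscle and liver forms of the synthase. The PPP1R3 subunits bring protein phosphatase 1 to glycogen, where it activates synthase and inactivates phosphorylase. In brown fat, adrenergic signalling in the cold drives glycogen breakdown, and insulin and refeeding drive its synthesis.

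The 3 phosphorylase genes catalyse the same reaction, and Pygl and Pygb fell in the cold while Pygm was not called, so the 250 bases before the start of each are shown, from RefSeq (GRCm38.p6, the mm10 build of the counts), 5′ to 3′ on the gene's own strand. The windows are chr12:70227684-70227933 on the minus strand for Pygl, chr2:150786546-150786795 on the plus strand for Pygb and chr19:6384158-6384407 on the plus strand for Pygm. The RefSeq start of Pygl and its window lie inside the span of this gene in GENCODE M21, whose 5′ end is at 70231488. Capitals mark the letters TGACG, the core shared by cyclic AMP response elements, and GGGCGG, a GC box, on either strand.
Pygl: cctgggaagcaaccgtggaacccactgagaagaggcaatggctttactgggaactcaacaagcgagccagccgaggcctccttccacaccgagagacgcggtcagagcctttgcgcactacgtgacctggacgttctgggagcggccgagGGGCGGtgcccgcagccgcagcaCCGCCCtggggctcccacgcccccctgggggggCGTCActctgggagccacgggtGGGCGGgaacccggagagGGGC
Pygb: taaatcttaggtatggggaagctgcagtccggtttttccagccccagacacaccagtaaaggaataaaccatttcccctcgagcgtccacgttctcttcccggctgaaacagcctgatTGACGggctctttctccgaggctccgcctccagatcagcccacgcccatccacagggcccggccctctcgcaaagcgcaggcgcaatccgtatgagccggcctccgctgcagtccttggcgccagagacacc
Pygm: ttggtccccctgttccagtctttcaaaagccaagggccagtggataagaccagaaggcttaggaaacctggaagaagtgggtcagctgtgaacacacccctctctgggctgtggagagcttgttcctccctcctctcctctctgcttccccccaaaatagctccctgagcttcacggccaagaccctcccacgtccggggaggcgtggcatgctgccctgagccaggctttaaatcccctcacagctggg
TGACG stands once in Pygl, at -44 from the start, and once in Pygb, at -132, and it is in 20.8% of all 32851 mouse promoter windows of 300 bases (250 before and 50 after the start). GGGCGG stands 4 times in Pygl, the last running past the end of the printed stretch, and not in the windows of Pygb or Pygm, against 35.7% of all windows. The full palindrome TGACGTCA, of which TGACG is a part, was in none of the 8 windows found for 7 of the 9 genes, against 1.79% of all windows. The E-box CACGTG was found only in Ppp1r3c, at -104, against 7.15% of all windows. Matches of these letters describe the windows and are not evidence of binding.

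Cold was the first comparison, made within each genotype to ask which glycogen genes respond to a few hours at 5 °C. In control mice Gys2 rose, while Ppp1r3b, Pygb, Pygl and, by a small amount, Gbe1 fell. In mice labelled KO the directions of Gys2, Ppp1r3b, Pygb and Pygl were the same, Gbe1 did not pass the test, and Ugp2 rose. Gys1, Pygm and Ppp1r3c passed it in neither genotype. In bulk tissue, fewer cells of a type and less RNA per cell cannot be told apart.

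**Figure D1:**
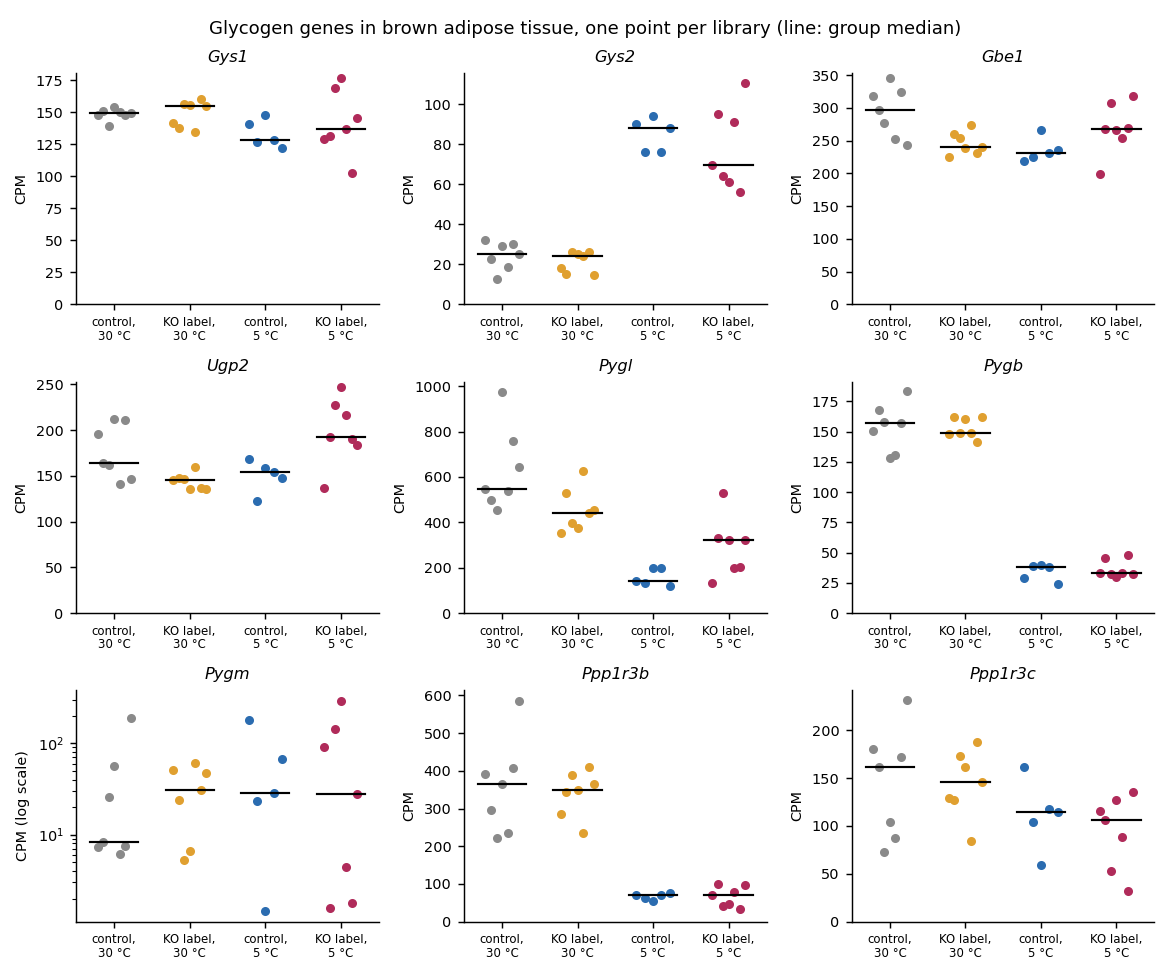
Level of each of the 9 glycogen genes in every library (CPM on TMM-scaled library sizes; the Pygm axis is logarithmic), by group, with a line at the group median. For Gys2, Pygb and Ppp1r3b the thermoneutral and cold libraries do not overlap in either genotype, while for Ugp2 and Pygl the cold libraries of the mice labelled KO reach higher than those of control mice.

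Gys2, the liver form of glycogen synthase (chr6:142422613-142473109), was low at thermoneutrality, with 13.0, 25.1 and 32.1 CPM as the lowest, median and highest of the control mice. After cold the 5 control mice had 90.2, 76.2, 93.9, 76.0 and 88.0 CPM. Every cold control library lay above every thermoneutral one, which is 1.79 ± 0.20 on the log2 scale (fold change ± SE; adjusted p = 7.78e-09, edgeR quasi-likelihood test with Benjamini-Hochberg adjustment over all genes tested, as for each adjusted p here). Mice labelled KO had 14.6, 24.2 and 26.3 CPM at thermoneutrality and 56.1, 69.7 and 111 CPM after cold, again without overlap (log2 1.88 ± 0.19, adjusted p = 1.05e-09). Markers of hepatocytes, in which Gys2 is the main synthase, were at or near 0, with group medians of at most 0.244 CPM for Alb, Apoa1, Ttr, Serpina1a and Fga. The sixth of that list, Cyp2e1, which adipose tissue also expresses, had medians of 76.4 CPM and 170 CPM in control mice at thermoneutrality and after cold.

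Gys1, the muscle form (chr7:45434844-45456619), stayed within a narrow band, at 139, 149 and 154 CPM in control mice at thermoneutrality and at 141, 127, 148, 129 and 122 CPM after cold. These groups overlapped (log2 -0.16 ± 0.09, adjusted p = 0.134), as did those of the mice labelled KO, at 135, 155 and 161 CPM and at 103, 137 and 177 CPM (log2 -0.07 ± 0.08, adjusted p = 0.435). When libraries were scaled by their totals alone or by upper quartiles, Gys1 fell after cold in both genotypes, by 0.23 to 0.41 on the log2 scale. It also passed without the 4 libraries richest in muscle markers (log2 -0.18, adjusted p = 0.0486, and -0.21, adjusted p = 0.0136). Per kilobase of exon, a scale on which genes can be compared, Gys2 thus came level with Gys1. At thermoneutrality control mice had 31.0 ± 0.96 (SD, n = 7) CPM per kb of Gys1 and 9.21 ± 2.56 of Gys2, and after cold 27.9 ± 2.26 and 31.9 ± 3.12 (n = 5). The share of Gys2 in the summed level of both went from 22.6% ± 4.88 to 53.4% ± 1.91 in control mice, and from 20.4% ± 3.81 to 49.6% ± 7.6 in mice labelled KO (SD, n = 7 and 7).

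**Figure D2:**
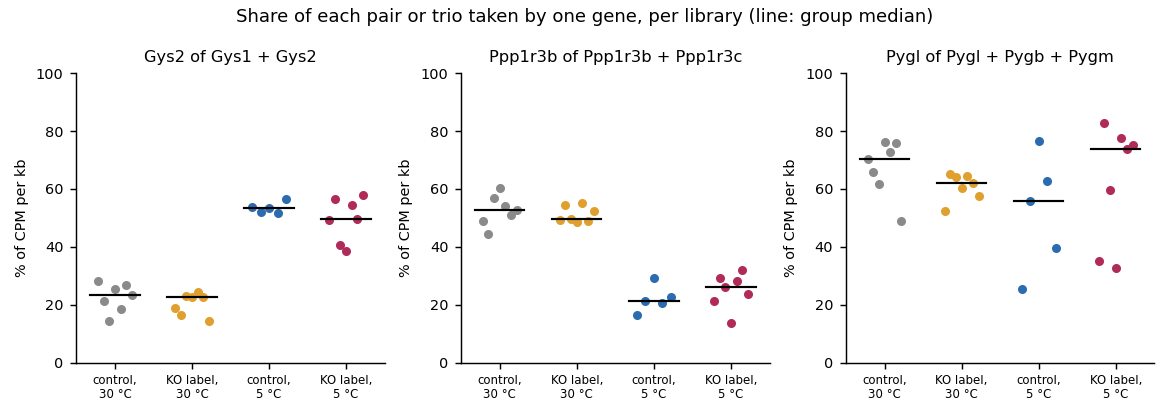
Share of Gys2 in the sum of both synthases, of Ppp1r3b in the sum with Ppp1r3c, and of Pygl in the sum of the 3 phosphorylases, in percent of CPM per kb of exon, for each library, with a line at the group median. The Gys2 share runs from 14.4% to 28.1% in control mice at thermoneutrality and from 51.6% to 56.4% after cold, and the Ppp1r3b share from 44.5% to 60.5% and from 16.3% to 29.1%.

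Gbe1, the branching enzyme (chr16:70313949-70569716), was at 243, 296 and 346 CPM in control mice at thermoneutrality and at 219, 225, 267, 232 and 236 CPM after cold. The cold libraries lay at the lower edge of the thermoneutral range and overlapped it (log2 -0.32 ± 0.10, adjusted p = 0.00486). In mice labelled KO the thermoneutral libraries were at 225, 241 and 274 CPM and the cold ones at 200, 268 and 318 CPM, a log2 change of 0.13 ± 0.09 that did not pass the test (adjusted p = 0.192). That value was -0.20 with library size alone and -0.03 with upper-quartile factors.

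Ugp2, which makes the UDP-glucose that synthase uses (chr11:21321138-21371201), was at 141, 164 and 212 CPM in control mice at thermoneutrality and at 169, 123, 159, 154 and 148 CPM after cold. Those groups overlapped, and the log2 fold change of -0.23 ± 0.12 did not pass the test (adjusted p = 0.0926), although it did without the 4 libraries richest in muscle markers (log2 -0.32, adjusted p = 0.0192). Mice labelled KO had 136, 146 and 159 CPM at thermoneutrality and 136, 192 and 247 CPM after cold. In these mice 6 of the 7 cold libraries lay above every thermoneutral one, the exception being replicate 22, and Ugp2 rose (log2 0.47 ± 0.11, adjusted p = 0.000368), a call lost with library size alone (log2 0.13, adjusted p = 0.269).

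Pygb, the brain form of phosphorylase (chr2:150786735-150831758), fell most evenly. Control mice had 128, 157 and 183 CPM at thermoneutrality and 29.3, 39.2, 39.95, 38.4 and 24.1 CPM after cold. The highest cold library was far below the lowest thermoneutral one (log2 -2.17 ± 0.13, adjusted p = 1.26e-13). Mice labelled KO went from 141, 149 and 162 CPM to 30.1, 33.2 and 47.7 CPM, also without overlap (log2 -2.07 ± 0.12, adjusted p = 1.76e-14).

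Pygl, the liver form (chr12:70190811-70231488), had the highest level per kilobase of the 9 genes in control mice at thermoneutrality, 91.4 ± 26.5 CPM per kb (SD, n = 7). In CPM these libraries ran from 455 over a median of 546 to 976, and the cold control libraries had 143, 134, 198, 196 and 117 CPM. The groups did not overlap (log2 -2.0 ± 0.26, adjusted p = 1.87e-07). Mice labelled KO had 354, 443 and 624 CPM at thermoneutrality and 132, 323 and 528 CPM after cold, and here the ranges overlapped (log2 -0.64 ± 0.22, adjusted p = 0.0132). Replicate 24 of the cold mice labelled KO, at 528 CPM, stood within the thermoneutral range, while replicate 22, at 132 CPM, was as low as the cold control mice.

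Pygm, the muscle form (chr19:6384399-6398459), varied most between mice and showed no call in any comparison. Its lowest, median and highest values were 6.10, 8.36 and 191 CPM in control mice at thermoneutrality, 5.24, 31.0 and 61.4 CPM in mice labelled KO, and 1.57, 28.2 and 291 CPM in mice labelled KO after cold. The 5 cold control mice had 178, 23.1, 1.46, 28.8 and 67.4 CPM. All groups overlapped, with log2 fold changes in the cold of 0.45 ± 1.05 (SE, adjusted p = 0.722) in control mice and 1.31 ± 0.98 (adjusted p = 0.241) in mice labelled KO. Across the 26 libraries its log2 CPM followed the mean log2 CPM of the 12 skeletal muscle markers with Pearson's r = 0.962 and Spearman's rho = 0.975 (permutation p = 1e-05 for each, the smallest that 100000 permutations can give, and 9e-05 adjusted over 9 genes). The r was 0.949 without the 2 libraries farthest from the median of the marker mean. It was 0.965, 0.982 and 0.977 within the control thermoneutral mice and the thermoneutral and cold mice labelled KO. No value was computed for the 5 cold control mice, where so few libraries leave r uncertain. None of the other 8 genes passed this test against the muscle markers (adjusted permutation p of 0.462 or more). That r pools cold and thermoneutral libraries; within the cold mice labelled KO it was -0.929 for Pygb and 0.782 for Gys1, on 7 libraries. The 3 libraries with the lowest marker sums, 1.5, 2.66 and 4.16 CPM, were all from cold mice and had 1.46, 1.57 and 1.80 CPM of Pygm. The next 3, with sums of 5.30, 8.96 and 10.6 CPM, were all from thermoneutral mice and had 5.24, 6.10 and 6.67 CPM. With the muscle score as a covariate the cold change of Pygm in control mice was -0.24 (adjusted p = 0.542). The 3 genes most like Pygm over the 26 libraries were Mybpc2, Eno3 and Hrc (Pearson's r of 0.996, 0.993 and 0.987), all genes of striated muscle.

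**Figure D3:**
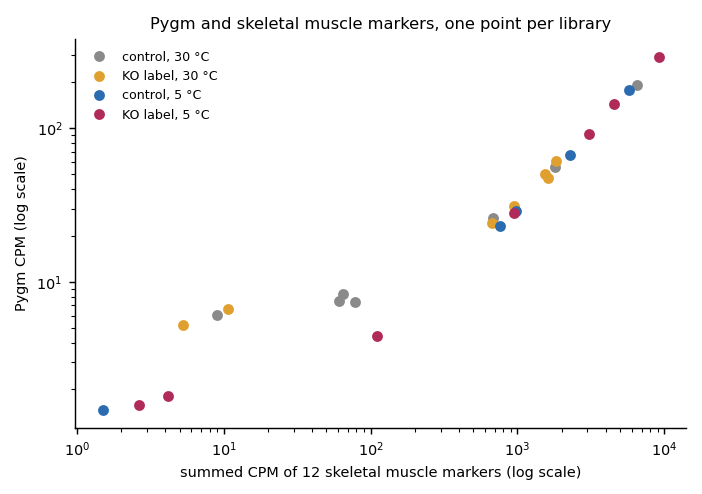
Pygm (CPM, log axis) against the summed CPM of 12 skeletal muscle markers (log axis), one point per library, coloured by group. Libraries of all 4 groups rise together toward the upper right; at the lower left the points flatten, and 3 cold libraries at 1.46 to 1.80 CPM lie lowest.

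Ppp1r3b, the targeting subunit first described in liver (chr8:35375739-35388139), showed the largest fall of the 9 genes in both genotypes. In control mice it went from 221, 364 and 586 CPM at thermoneutrality to 71.7, 63.8, 55.3, 69.3 and 77.0 CPM after cold. Every cold library was far below every thermoneutral one (log2 -2.41 ± 0.26, adjusted p = 6.14e-09). Mice labelled KO went from 235, 349 and 410 CPM to 34.2, 70.8 and 100 CPM, likewise without overlap (log2 -2.34 ± 0.23, adjusted p = 7.59e-10).

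Ppp1r3c, also called PTG, is the related subunit of many tissues (chr19:36731731-36736653), and it moved much less. It was at 73.0, 162 and 232 CPM in control mice at thermoneutrality and at 161, 104, 59.2, 118 and 114 CPM after cold, with overlap (log2 -0.38, adjusted p = 0.288). Mice labelled KO had 84.4, 146 and 188 CPM and then 31.7, 106 and 136 CPM, again with overlap (log2 -0.62 ± 0.28, adjusted p = 0.0527). That value lay near the threshold and passed it under 5 of 11 other settings, all with the same direction. Per kilobase the pair began at like levels in control mice, 57.5 ± 20.1 CPM per kb for Ppp1r3b and 53.0 ± 21.2 for Ppp1r3c (SD, n = 7), and after cold stood at 10.9 ± 1.33 and 40.9 ± 13.4 (n = 5). Ppp1r3b therefore made up 52.6% ± 5.28 of the pair at thermoneutrality and 22.0% ± 4.63 after cold in control mice, and 51.1% ± 2.69 and 24.9% ± 6.10 in mice labelled KO (SD, n = 7 and 7).

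Over the 9 genes, 5 passed the test in control mice, 1 higher and 4 lower, beside 65.0% of all genes tested (31.6% higher and 33.4% lower); 4 of the 9 had groups that did not overlap, beside 46.4% of all genes. In mice labelled KO, 5 passed it, 2 higher and 3 lower, beside 68.6% (33.7% and 34.9%), and 3 had groups that did not overlap, beside 40.4%. These shares lie near those of all genes. The median log2 fold change of the 9 was -0.32 in control mice, beside -0.01 over all genes tested, and -0.07 in mice labelled KO, beside -0.03. With either library size alone or upper-quartile factors the split in control mice was 1 higher and 6 lower. In mice labelled KO it was 1 higher and 5 lower with library size alone and 2 higher and 5 lower with upper-quartile factors. Of all genes tested, 10408 and 11330 then passed in control mice and 11607 and 12063 in mice labelled KO, in the same order of scalings. The medians of all genes were then lower too, at -0.14 and -0.12 in control mice and -0.34 and -0.18 in mice labelled KO. Shares of all genes by direction are not given for these scalings. Gys2 rose and Pygl, Pygb and Ppp1r3b fell in both genotypes under all 11 other settings and without any single library.

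**Figure D4:**
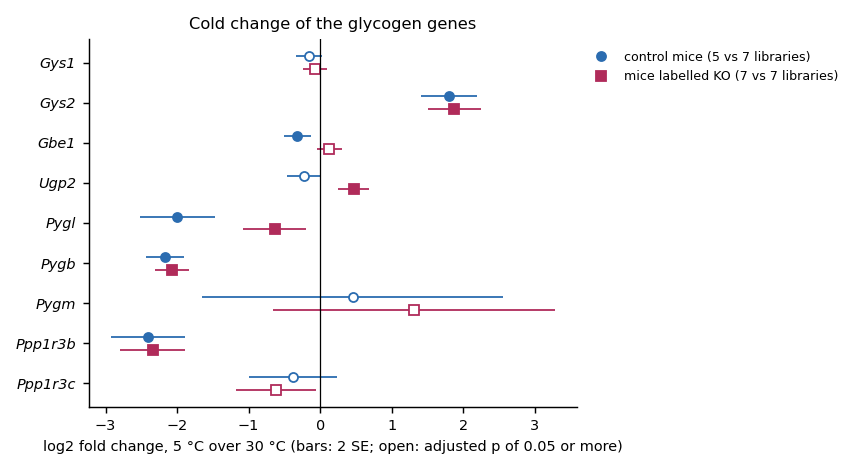
Log2 fold change of each gene, 5 °C over 30 °C, in control mice (circles, 5 against 7 libraries) and mice labelled KO (squares, 7 against 7), with bars of 2 SE and open symbols where the adjusted p was 0.05 or more. Gys2 lies to the right at 1.79 and 1.88, Ppp1r3b and Pygb lie near or beyond -2 in both, and Pygl is at -2.0 and -0.64.

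Genotype was compared at each temperature, to ask whether glycogen genes depend on Afadin in fat. At thermoneutrality none of the 9 genes passed the test in edgeR or in DESeq2, beside 0.0810% of all genes in edgeR; 3 had an unadjusted p under 0.05 in edgeR, beside 7.65% of all genes. These were Gbe1 (log2 -0.26, adjusted p = 0.419), Ugp2 (log2 -0.29, adjusted p = 0.46) and Pygl (log2 -0.47, adjusted p = 0.63), each lower on average in mice labelled KO with overlapping ranges. After cold none of the 9 passed in edgeR, beside 0.139% of all genes, and 2 had an unadjusted p under 0.05, beside 13.4%. These were Ugp2 (log2 0.41 ± 0.12, adjusted p = 0.138) and Pygl (log2 0.89 ± 0.25, adjusted p = 0.13), both higher on average in mice labelled KO, with 6 of 7 libraries above the control median. Both passed in DESeq2 (log2 0.42, adjusted p = 0.042, and log2 0.90, adjusted p = 0.0259), and both passed in edgeR without replicate 22 of the cold mice labelled KO (adjusted p = 0.0385 and 0.0415). Of all genes, 197 passed in DESeq2 and 100 in edgeR without replicate 22, against 24 in edgeR with all libraries. Replicate 22 had the lowest Gbe1, Ugp2 and Pygl of its group, at 200, 136 and 132 CPM.

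Whether the cold response itself differed between genotypes was tested by the difference of the 2 cold changes. It passed the test for Ugp2 (log2 0.70 ± 0.16, adjusted p = 0.0327) and Pygl (log2 1.36 ± 0.33, adjusted p = 0.0408). That is 2 of the 9 genes, beside 1.16% of all genes. Both differences, mice labelled KO minus control mice, were positive, beside 0.289% of all genes called in that direction. Of the 9 genes, 3 had an unadjusted p under 0.05, beside 16.2%. For Ugp2 the cold changes set against each other were -0.23 and 0.47, and for Pygl they were -2.0 and -0.64. Pygl thus fell in both genotypes, and less in mice labelled KO. For Gbe1 the difference was 0.45 ± 0.13 (adjusted p = 0.0821), which passed in DESeq2 (0.46, adjusted p = 0.0273). Both edgeR calls stood near the threshold. The Pygl call was lost in 19 of the 26 fits that left out 1 library, being kept only without replicates 3, 5 or 7 of the control thermoneutral mice, 12 of the thermoneutral mice labelled KO, or 22, 26 or 27 of the cold mice labelled KO. The Ugp2 call was lost in 9 of these fits, without control thermoneutral replicates 4 or 6, replicates 8, 10 or 11 of the thermoneutral mice labelled KO, cold control replicates 17, 19 or 21, or replicate 24 of the cold mice labelled KO. The log2 differences over these fits were 1.15 to 1.49 for Pygl, with adjusted p of 0.017 to 0.0912, and 0.63 to 0.77 for Ugp2, with adjusted p of 0.00967 to 0.0776. Without the 4 libraries richest in skeletal muscle markers the Pygl difference was 1.04 (adjusted p = 0.117). Macrophages and neutrophils also express Pygl: the 6 macrophage markers summed to 177 to 257 CPM and 174 to 218 CPM at thermoneutrality in control mice and mice labelled KO, and to 204 to 261 CPM and 213 to 308 CPM after cold. The 6 neutrophil markers summed to at most 8.26 CPM at thermoneutrality, with Ly6g at 0 in every thermoneutral library, and to 5.02 to 10.9 CPM and 4.66 to 55.2 CPM after cold. In the difference of cold responses Ugp2 and Pygl were positive, and so were all 6 macrophage markers and all 5 neutrophil markers tested. The medians of these markers were 0.328 and 0.932 on the log2 scale, beside 0.044 over all genes, with no call. Red blood cell markers shared that sign, although their cold changes were unlike those of Pygl, with medians of 0.074 in control mice and 1.272 in mice labelled KO. The 4 of them summed to medians of 414 and 372 CPM at thermoneutrality in control mice and mice labelled KO, and of 446 (406 to 666) and 821 (499 to 1470) CPM after cold. All 4 had positive differences of cold responses, with a median log2 of 1.21, an unadjusted p under 0.05 and no call in edgeR after adjustment. The part of these cells in the results for Ugp2 and Pygl was not tested.

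The genes were next compared with one another across the 26 libraries after removing each group's mean, so that cold and genotype do not enter. Of 36 pairs, 5 had an adjusted permutation p under 0.05 for Pearson's r. These log2 CPM values share the scaling of each library. The 2 farthest libraries left out below were chosen on the first-named gene of each pair alone. Ppp1r3b and Ppp1r3c varied together most closely, with r = 0.792 and rho = 0.734 (adjusted permutation p = 0.00072 and 0.00936), and r = 0.704 without the 2 libraries farthest from the median. Within the groups, of only 5 or 7 libraries each, r was 0.737 to 0.938. Mice of a group with more Ppp1r3b thus had more Ppp1r3c, although of the pair cold lowered Ppp1r3b alone past the test.

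Gbe1 varied with Pygl (r = 0.719, rho = 0.626, adjusted permutation p = 0.00756 and 0.0214, and r = 0.695 without the 2 farthest libraries). Gbe1 and Ugp2 had r = 0.711 and rho = 0.546 (adjusted permutation p = 0.0191 and 0.0924) and 0.527 without those libraries. Ugp2 and Pygl had r = 0.622 and rho = 0.531 (adjusted permutation p = 0.0377 and 0.0924) and 0.476 without the 2 libraries farthest in Ugp2. In the 5 cold control mice, too few for a firm value, r was only 0.205 for Gbe1 and Ugp2 and 0.393 for Ugp2 and Pygl. These 3 genes had the 3 largest differences of cold responses, apart from Pygm (0.85 ± 1.45).

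Gys2 and Ppp1r3b had r = 0.634 and rho = 0.698 (adjusted permutation p = 0.0269 and 0.0153), and 0.648 without the 2 farthest libraries. Cold moved these 2 genes in opposite directions, yet within a group a mouse with more Gys2 had more Ppp1r3b, most closely in the cold mice labelled KO (r = 0.933) and the thermoneutral control mice (r = 0.739). In the thermoneutral mice labelled KO and the cold control mice r was 0.0516 and -0.171, on 7 and 5 libraries.

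Genes whose levels over all 26 libraries were most like those of a member, among 14246 genes of at least 1 CPM on average, are named as a description, since the thermoneutral and cold libraries form separate clusters that any cold-responsive pair shares. For Gys2 they were Pdhx, Gfm1 and Dnaja3 (Pearson's r of 0.967 to 0.969, and 0.677 to 0.734 with group means removed), which encode a component of the pyruvate dehydrogenase complex, a mitochondrial elongation factor and a mitochondrial chaperone. For Pygl they were Tkt, Sorcs2 and Pdk1 (0.942 to 0.972, and 0.750 to 0.887), of which Tkt encodes transketolase of the pentose phosphate pathway and Pdk1 a pyruvate dehydrogenase kinase. Gbe1 was most like Pdha1, Sh3glb1 and Sdhc (0.771 to 0.830, and 0.653 to 0.802 with group means removed). Ugp2 was most like Psmf1, Pdhb and Zscan12 (0.754 to 0.808, and 0.647 to 0.681). Gbe1, Ugp2 and Gys2 each had a subunit of the pyruvate dehydrogenase complex among their 3 nearest genes, which was seen after the fact. How often other genes have such neighbours was not counted. Ppp1r3b was most like Marveld1, Plekhh3 and Cntnap1 (0.976 to 0.986). Gys1 was nearest to Slc47a1, Pxmp4 and Mccc1 (0.780 to 0.826) and Ppp1r3c to Stxbp4, Abcb9 and Hoxc5 (0.777 to 0.821).

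Ordered by level per kilobase of exon, the control mice at thermoneutrality had Pygl first, followed by Ppp1r3b, Ugp2, Gbe1 and Ppp1r3c at 53.0 to 57.5 CPM per kb, whose spreads overlapped. Pygb and Gys1 came next, at 31.9 ± 4.06 and 31.0 ± 0.96, and Pygm (13.4 ± 21.1) and Gys2 (9.21 ± 2.56) came last. After cold, in control mice, Ugp2 (49.0 ± 5.64), Gbe1 (44.1 ± 3.48) and Ppp1r3c (40.9 ± 13.4) stood first and did not differ beyond their spread. Gys2 and Gys1 followed, then Pygl (22.9 ± 5.38), Pygm (18.6 ± 21.9), Ppp1r3b (10.9 ± 1.33) and Pygb (7.11 ± 1.48) (SD, n = 5). In cold mice labelled KO the order began with Ugp2 (64.9 ± 11.7), Gbe1 (50.3 ± 7.22) and Pygl (42.3 ± 18.8; n = 7). With the longest transcript as the length, Pygl was at 50 ± 11.8 in cold control mice, above Ppp1r3c at 40.9 ± 13.4. Gbe1 (63.2 ± 4.99) then stood above Ugp2 (56.1 ± 6.44) in these mice. Pygl then came first in cold mice labelled KO, at 92.6 ± 41.2, before Ugp2 (74.2 ± 13.3) and Gbe1 (72.1 ± 10.3). In thermoneutral control mice Pygl stayed first, at 200 ± 58, followed by Ppp1r3b (81.5), Gbe1 (78.7), Ugp2 (65.6) and Ppp1r3c (53.0). The order, including its top in the cold groups, thus depends on the length used. Among phosphorylases, Pygl made up 67.4% ± 9.72 of the summed level per kilobase in control mice at thermoneutrality and 52.0% ± 20 after cold, a sum that includes Pygm. The spread of this share in the cold libraries covers its whole difference.

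The rest of the pathway, 23 genes chosen for function with earlier results of these data known, was tested in the same fits. In control mice 5 rose and 11 fell after cold, beside 31.6% and 33.4% of all genes tested, and in mice labelled KO 6 rose and 7 fell, beside 33.7% and 34.9%. These splits were 3 and 11 in control mice and 5 and 9 in mice labelled KO with upper-quartile factors, and 3 and 12 in mice labelled KO with library size alone. The medians of all genes were lower under these scalings too, as given above. With all 26 libraries, no gene of the 23 passed in either genotype comparison or in the difference of cold responses, in edgeR or DESeq2; 0, 4 and 3 of them had an unadjusted p under 0.05 in edgeR, beside 7.65%, 13.4% and 16.2% of all genes. Without the 4 libraries richest in muscle markers, Ppp1cb, a catalytic subunit of protein phosphatase 1, passed for the KO label at thermoneutrality (log2 -0.38, adjusted p = 0.0387 in edgeR). In that fit 102 of 17288 genes passed, against 14 of 17286 with all libraries.

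**Figure D5:**
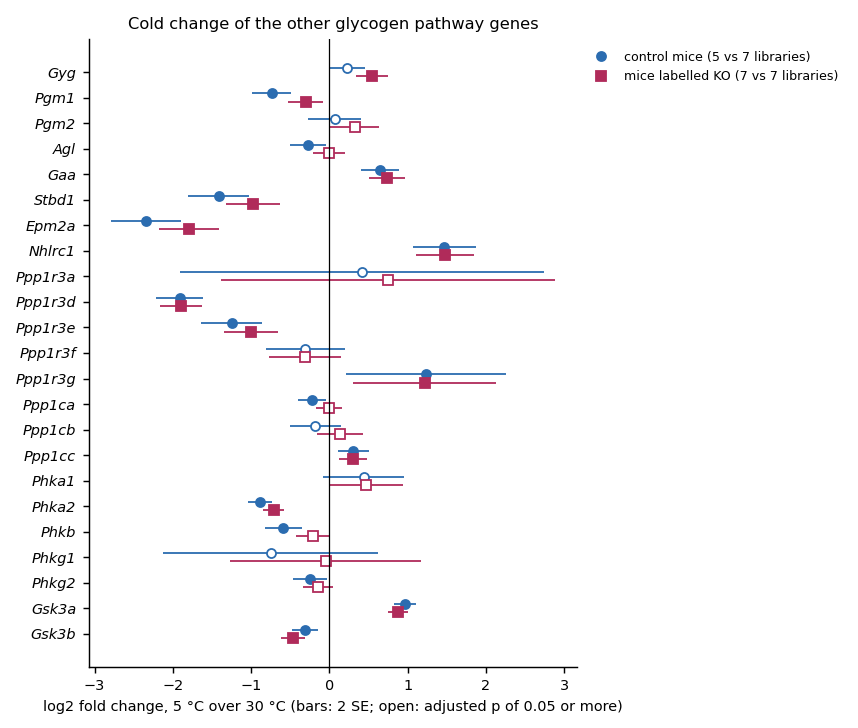
Log2 fold change, 5 °C over 30 °C, of the 23 other glycogen pathway genes in control mice (circles, 5 against 7 libraries) and mice labelled KO (squares, 7 against 7), with bars of 2 SE and open symbols where the adjusted p was 0.05 or more. Epm2a and Ppp1r3d lie farthest to the left and Nhlrc1 farthest to the right, and the muscle genes Ppp1r3a and Phkg1 have the widest bars.

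Laforin and malin, the phosphatase and the ubiquitin ligase whose loss causes Lafora disease, moved apart. Epm2a (laforin) had 22.6, 24.2 and 31.3 CPM in control mice at thermoneutrality and 3.34 to 8.54 CPM after cold (log2 -2.34 ± 0.22, adjusted p = 7.07e-10; in mice labelled KO -1.80 ± 0.19, adjusted p = 5.28e-09). Nhlrc1 (malin) went from 0.831, 1.70 and 2.71 CPM to 4.37 to 5.69 CPM (log2 1.47 ± 0.20, adjusted p = 3.74e-07; in mice labelled KO 1.48 ± 0.19, adjusted p = 8.71e-08). Malin acts together with laforin on the PPP1R3C protein, among other targets.

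Of the further targeting subunits, Ppp1r3d and Ppp1r3e fell as Ppp1r3b did, Ppp1r3g rose, and Ppp1r3f was called in neither genotype. The rise of Ppp1r3g rests on 1 to 22 counts per library (log2 1.23, adjusted p = 0.0369 in control mice, and 1.22, adjusted p = 0.0205 in mice labelled KO). Ppp1r3e had 11 to 60 counts per library. Ppp1r3d went from 25.0 to 36.5 CPM down to 7.39 to 8.63 CPM in control mice (log2 -1.91 ± 0.15, and -1.90 ± 0.13 in mice labelled KO), and Ppp1r3e from 1.76 to 3.09 CPM down to 0.864 to 1.25 CPM (log2 -1.25 and -1.0). Ppp1r3a, the subunit of striated muscle, spread from 0.0773 to 30.5 CPM within the control thermoneutral mice alone, as Pygm did. Stbd1, which binds glycogen for delivery to lysosomes, fell (log2 -1.42 and -0.98), while Gsk3a, a kinase that inactivates glycogen synthase, rose from 26.8 to 30.0 CPM up to 53.8 to 60.6 CPM in control mice (log2 0.97 ± 0.07, adjusted p = 2.73e-12; in mice labelled KO 0.87 ± 0.06, adjusted p = 3.47e-12). The other glycogen synthase kinase gene listed, Gsk3b, went the other way, without overlap in either genotype. It fell by log2 -0.309 ± 0.083 in control mice (adjusted p = 0.00195) and -0.466 ± 0.075 in mice labelled KO (adjusted p = 4.7e-06). Cold control mice had 56.4 CPM of Gsk3b on average, beside 56.0 CPM of Gsk3a.

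Several of the loci hold a second annotated gene. Ruvbl2 lies over part of Gys1 on the opposite strand, with 14485 counts over the 26 libraries against 65391 for Gys1, and non-coding genes with at most 996 counts lie over parts of Ugp2, Pygl and Ppp1r3b. The libraries kept strand, but whether counting used it is not stated in the sources used here, so reads in these overlaps cannot be placed with certainty. Between the 9 genes themselves no stretch of 100 bases, the read length, was shared.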

How the data were processed

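Total RNA was rRNA-depleted and sequenced as stranded single-end libraries of 100 bases. Per the labels and the study's methods, the authors aligned reads to mm10 with STAR 2.5.2b and counted them per GENCODE M13 gene with featureCounts 1.5.2; the authors analysed them with edgeR 3.22.0. The deposited table holds raw counts of 26 libraries, one per mouse, mapped to groups by their titles. Here the counts were fitted across all genes with edgeR 4.0.16 (y ~ 0 + group, filterByExpr and quasi-likelihood F-test as in the study's methods; TMM factors were chosen here; R 4.3.3), with Benjamini-Hochberg adjustment and a threshold of 0.05. SE is the log2 fold change divided by the square root of F. CPM use TMM-scaled library sizes, log2 CPM a prior count of 2, and CPM per kb the summed exon length in GENCODE M21, which matched 50462 of 50686 genes. DESeq2 1.42.0, other scalings, filters and dispersion settings, a muscle covariate and leaving out each library were alternatives. Leaving out together the 4 libraries richest in skeletal muscle markers was chosen after seeing the data. Fits were tested on simulated data.

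The members and lists were chosen with earlier results of these data known. All 9 members are named; of the 23 other pathway genes, the up to 6 called genes with the largest change and at least 1 CPM. Ppp1r3a, Ppp1r3f, Ppp1r3g, Ppp1cb and Gsk3b were named after their values were seen. The 3 most alike genes are by Pearson's r; those of Pygb are not reported here. No 2 libraries of a group matched within sampling noise (lowest chi-square per gene 5.17 over 73 pairs). Total counts of 12705969 to 25732258 leave the spread between mice as the main error. Correlations used 100000 permutations. Promoters of Gys2 and Ppp1r3b were not analysed here.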

Additional observations from a re-analysis of the deposited data

Results flagged for a closer look

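In 36 groups of libraries, 9 genes by 4 groups, Dixon's test for a single distant sample pointed to 2, and chance alone gives about 1 in 20. Gys1 was at 139.3 CPM in control thermoneutral replicate 3, against 147.7 CPM in the next library, in a group whose whole range is narrow. Pygm was at 191.2 CPM in control thermoneutral replicate 7, against 56.15 CPM in the next, and this is the library of the group with the highest sum of skeletal muscle markers, 6510 CPM.

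The cold responses of Ugp2 and Pygl differed between control mice and mice labelled KO by 0.696 (adjusted p = 0.0327) and 1.36 (adjusted p = 0.0408) on the log2 scale in edgeR's quasi-likelihood test of the difference itself. Both calls stood near the threshold. Of the 26 fits that left out 1 library, 9 lost the Ugp2 call and 19 the Pygl call, as did 2 and 4 of 10 other settings.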

How the results depend on the processing

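No paired analysis was possible because the groups share no replicate numbers. The 2 calls on the difference of cold responses depended on the processing most: their number was 0 with library size alone as the scaling and with no filter, 1 with robust empirical Bayes and without the 4 libraries richest in muscle markers, 3 in DESeq2, and 0 to 3 when single libraries were left out. All genes passing numbered 200 in the main fit, 278 with library size alone and 27 of 34761 with no filter. They numbered 198 with robust empirical Bayes, 215 without the 4 libraries, 488 in DESeq2, and 49 to 371 when single libraries were left out. With library size alone the differences were 0.46 for Ugp2 (adjusted p = 0.114) and 1.12 for Pygl (adjusted p = 0.0704), and with no filter 0.69 (adjusted p = 0.0627) and 1.35 (adjusted p = 0.0757). For the KO label after cold, 2 of the 9 genes passed in DESeq2, and 0 to 2 when single libraries were left out. All genes passing for it numbered 24 in the main fit, 197 in DESeq2, and 7 to 100 when single libraries were left out. Library size alone shifted the median log2 fold change of all genes to -0.14 and -0.34 in the cold in control mice and mice labelled KO, 0.13 for the KO label at thermoneutrality and -0.15 for the difference of cold responses; upper-quartile factors shifted the cold medians to -0.12 and -0.18. The cause of these changes was not tested.

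With the longest transcript as the length, shares of CPM per kb were 16.4% and 46.8% for Gys2 in thermoneutral mice labelled KO and cold control mice, and 78.6% and 73.8% for Pygl in thermoneutral control mice and mice labelled KO. Those of Ppp1r3b were 61.1%, 59.7%, 28.4% and 31.8% in thermoneutral control and labelled KO and cold control and labelled KO mice.

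Changes of sign were confined to values that did not pass the test in either setting. With library size alone they were -0.20 for Gbe1 after cold in mice labelled KO; 0.13, 0.027 and 0.092 for Pygb, Ppp1r3b and Ppp1r3c for the KO label at thermoneutrality; and -0.13, -0.086, -0.068 and -0.049 for the differences of cold responses of Gys1, Gys2, Pygb and Ppp1r3b. With upper-quartile factors Gbe1 was -0.03 after cold in mice labelled KO, and Pygb and Ppp1r3c were 0.027 and 0.026 for the label at thermoneutrality. For the label at thermoneutrality Pygb and Ppp1r3c were also 0.01 and 0.007 with no filter, 0.006 and 0.002 with at least 10 counts in every library, and 0.011 and 0.009 with only the groups compared. With the muscle covariate Pygb was 0.006 there, and Pygm -0.24 after cold in control mice. Ppp1r3b for the label after cold was 0.008 in DESeq2, 0.008 with its size factors in edgeR, 0.01 with no filter and 0.006 with the muscle covariate. Without the 4 libraries richest in muscle markers, Pygm was -0.36 after cold in mice labelled KO, and Pygb, Pygm, Ppp1r3b and Ppp1r3c were 0.039, 0.80, 0.086 and 0.14 for the label at thermoneutrality. Gys1, Gys2, Pygm and Ppp1r3b were then -0.024, 0.021, -0.25 and 0.20 for the label after cold, and Gys1 and Pygm -0.026 and -1.04 for the difference of cold responses.

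Leaving out single libraries, the KO label at thermoneutrality ran from -0.01 to 0.037 for Gys1, -0.044 to 0.061 for Pygb, -0.66 to 0.81 for Pygm, -0.16 to 0.11 for Ppp1r3b and -0.12 to 0.17 for Ppp1r3c. After cold the label ran from -0.012 to 0.15 for Pygb, -0.41 to 1.42 for Pygm and -0.13 to 0.11 for Ppp1r3b. Pygm after cold in control mice ran from -0.53 to 1.65. The differences of cold responses ran from -0.022 to 0.19 for Gys2, -0.007 to 0.16 for Pygb, -0.38 to 1.84 for Pygm and -0.10 to 0.18 for Ppp1r3b. After cold Gys1 and Ugp2 passed the test in control mice under 5 and 4 of 11 other settings, as did Gys1 and Ppp1r3c in mice labelled KO under 3 and 5, all in their stated directions.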
